A study of Rattus norvegicus with 4 samples.

Results

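Ion, phosphate and acid-base transport genes were examined in the rat kidney epithelial line NRK-52E, in libraries titled lv_Mettl3 and lv_nc. The genes were the protein-coding rows whose symbols place them in the Slc4, Slc8, Slc9, Slc12, Slc20, Slc24, Slc26 or Slc34 solute carrier families or among the alpha and beta subunits of the Na,K-ATPase (Atp1a and Atp1b). The symbol rule found 52 genes among 17768 rows of the table, 9 each in the Slc4, Slc9, Slc12 and Slc26 families, 4 each for Atp1a and Atp1b, 3 each in Slc8 and Slc24 and 2 in Slc20. No Slc34 gene was among them, and that family was not analysed here. Of the 52, 49 have the symbol of a carrier or pump subunit, and 3 encode proteins named for a carrier that they bind: Slc4a1ap, Slc9a3r1 and Slc9a3r2.

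NRK-52E is an established line from normal rat kidney, labelled as proximal tubular epithelium and as untreated in all 4 samples. The lv_Mettl3 group has 2 libraries and the lv_nc group has 2. The protocol text, identical for all samples, describes a lentiviral vector with a puromycin resistance cassette and a murine Mettl3 cDNA, virus harvested from packaging cells at 48 h, and stable lines kept under puromycin (0.5 mg/ml for selection, 0.25 mg/ml afterwards) in medium with 10% serum. The labels do not spell out nc, do not say whether a line is 1 clone or a pool, and do not say whether replicates were separate cultures, so the spread behind each p-value is that of these libraries alone and may be technical. Mettl3 encodes the catalytic subunit of the N6-methyladenosine writer of messenger RNA. Values below are normalized read counts (gene reads divided by 1 size factor per library), given as mean ± SD with n = 2 libraries a group, and levels compared between genes are normalized counts per kb of the deposited gene length.

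The Na,K-ATPase moves sodium out of the cell and potassium in, and the gradients it builds power the other carriers. Sodium/proton exchangers (Slc9), bicarbonate carriers (Slc4) and anion exchangers (Slc26) set the pH of the cytosol, of organelles and of the tubular fluid. Cation-chloride cotransporters (Slc12) set cell volume and chloride, Slc20 carriers import phosphate, and Slc8 and Slc24 exchangers expel calcium. In the intact tubule each segment is known by its own apical carriers, such as Slc12a1 in the thick ascending limb and Slc12a3 in the distal convoluted tubule.

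Mettl3 itself had normalized counts of 757 and 700 in the lv_Mettl3 libraries and 719 and 767 in the lv_nc libraries, which overlap (limma log2 fold change -0.03, SE 0.11, adjusted p = 0.931). Whether reads of the murine cDNA were counted on the rat gene cannot be told from the deposited table, so these values may be those of the cells' own transcript alone and do not check the labels. Directions below are those of the libraries labelled lv_Mettl3. Recovered gene reads were between 15068898 and 16622255 per library. The lv_nc libraries lay farther apart than the lv_Mettl3 libraries: log2 differences between replicates had an SD of 0.29 in lv_Mettl3 and 0.41 in lv_nc over the 10051 genes whose mean reached 100. Over the 26 ion transport genes at that level the SD was 0.16 in lv_Mettl3 and 0.31 in lv_nc. Library lv_nc replicate 2 was alone at the top or bottom of the 4 libraries for 32 of the 49 ion transport genes tested, against 66.7% of all genes tested, and several results below rest on it. Among proximal tubule markers the table held 11 of 16, and 5 had a mean under 20. Ggt1 had 3294 and 3757 in lv_Mettl3 and 2412 and 2530 in lv_nc. DESeq2 called it higher (adjusted p = 0.0345), with 183 of all 17768 genes called higher (background 1.79% in either direction). Gatm (587 to 636), Slc7a9 (184 to 367), Pdzk1 (162 to 169) and Slc3a1 (59.6 to 82.7) were also expressed. The endocytic receptor gene Lrp2 and the water channel gene Aqp1, which define the segment in the kidney, were between 0 and 6.46. Of markers of the thick limb, distal tubule and collecting duct (8 of 17), 5 had a mean under 20. Trpm6, the highest, had 541 and 607 in lv_Mettl3 and 532 and 360 in lv_nc. Leukocyte markers (3 of 8 in the table) summed to at most 58.9 in a library and endothelial markers (4 of 7) to at most 39.3. Fibroblast and smooth muscle markers (9 of 13) summed to 5515 and 5018 in lv_Mettl3 and 13779 and 18002 in lv_nc. Most of that gap lay in Col1a1 (1033 and 876 in lv_Mettl3, 3914 and 8706 in lv_nc) and Col3a1 (1386 and 1017 in lv_Mettl3, 4115 and 6315 in lv_nc). DESeq2 called these, Col1a2 and Acta2 lower (4 of 9), with 135 of all 17768 genes called lower (background 1.79% in either direction). Tagln, with 2160 and 2152 in lv_Mettl3 and 3778 and 1663 in lv_nc, overlapped between the groups, as did Myh11 and Des. The part of these markers in the results below was not tested. In bulk RNA, fewer cells of a type and less RNA per cell cannot be told apart.

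Of the 52 ion transport genes, none passed the test for a difference between lv_Mettl3 and lv_nc. The test was limma on log2(normalized count + 1) over the 16391 genes that reached 1 normalized count in 2 or more libraries, and p-values were adjusted by Benjamini-Hochberg with a threshold of 0.05. It covered 49 of the 52 and called 0, where it called 0.0183% of all genes tested, and the smallest adjusted p among the 49 was 0.385. At an unadjusted p under 0.05 there were 5 of 49, close to the 10.5% of all genes tested. Slc20a1 was higher (1 of 49, background 5.54%), and Slc4a8, Slc9a3r1, Slc9a3r2 and Slc9a9 were lower (4 of 49, background 4.93%). On the recovered whole reads, DESeq2 called 0 of the 52 (background 1.79%, smallest adjusted p 0.0635 for Slc20a1, none given for 16 of the 52) and had 4 at an unadjusted p under 0.05 (background 7.44%), among them Slc20a1, Slc12a2 and Slc9a3r1. The edgeR quasi-likelihood test called 0 (background 0.0305%) and had 4 at an unadjusted p under 0.05 (background 10.1%). In the authors' deposited table the smallest adjusted p of the 52 was also 0.0635, and 0 of them were in the authors' shorter list of 167 genes. Slc4a8 passed the filter on low values through lv_nc alone, so its difference follows partly from the filter.

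The call of 0 depended on 1 library. Without lv_nc replicate 1, which leaves replicate 2 as the lone lv_nc library and assumes that it varies as the lv_Mettl3 pair does, limma called 5 of 48 ion transport genes, where it called 8.92% of all genes tested. Among them, Slc12a2 and Slc20a1 rose (background 5.1%) and Slc26a11 and Slc9a3r1 fell (background 3.82%) in that fit, with limma adjusted p between 0.0157 and 0.0453. DESeq2 without the same library called 4 of 52 (background 8.79%), among them Slc12a2, Slc20a1 and Slc9a3r1. Leaving out lv_Mettl3 replicate 1, lv_Mettl3 replicate 2 or lv_nc replicate 2 gave 0 calls among the 52 genes by limma (backgrounds 0.255%, 0.275% and 0.175%) and by DESeq2 (backgrounds 0.318%, 0.347% and 1.24%).

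The differences were small at the levels where they could be measured well. A total of 26 of the 52 genes had a mean of at least 100 over the 4 libraries, and none of these had a fitted difference beyond 2-fold. The 95% interval of the log2 fold change, from limma, lay within -1 to 1 for 22 of the 26, and either bound lay between 0.21 and 0.73 from the fitted value. The intervals of Slc12a2, Slc26a11 and Slc9a9 were among those that reached beyond 2-fold. The median log2 fold change over the 49 genes tested was -0.13, beside 0.01 over all genes tested. Over the ion transport genes tested in each fit, the median was -0.17 without lv_nc replicate 1 and -0.05 without lv_nc replicate 2. It was -0.13 without lv_Mettl3 replicate 1 and -0.06 without lv_Mettl3 replicate 2. With all libraries kept, it was -0.05 by DESeq2 and -0.06 by limma with at least 10 in all 4 libraries. Moves of this size were therefore not particular to lv_nc replicate 2. The groups did not overlap for 24 of 49 (background 45%). Both lv_Mettl3 libraries lay below both lv_nc libraries for 17 of 49 (background 21.5%) and above them for 7 of 49 (background 23.5%).

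**Figure D1:**
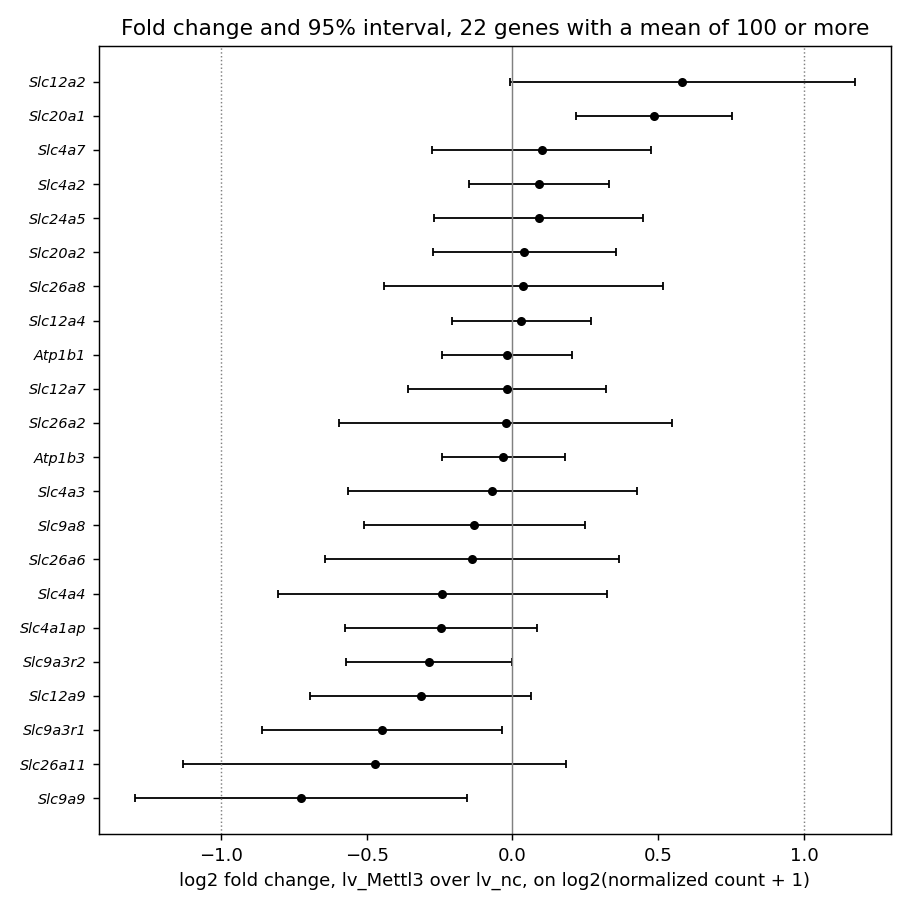
Log2 fold change of lv_Mettl3 over lv_nc (x axis, on log2(normalized count + 1)) for 22 ion transport genes with a mean of at least 100, with 95% intervals from limma as bars and 2-fold as dotted lines. Slc12a2 (0.58) and Slc20a1 (0.49) stand at the top and Slc9a9 (-0.72) at the bottom, while Atp1b1 and Atp1b3 lie within 0.05 of 0.

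Among genes with Atp1b symbols, Atp1b1 and Atp1b3 were abundant and had log2 fold changes of -0.02 and -0.03, and Atp1b2 and Atp1b4 were scarce. Atp1b1, the beta subunit that brings the pump to the membrane (ENSRNOG00000002934, chromosome 13, 82737159 to 82758004; coordinates here and for the genes below are those deposited, whose build the sources used here do not name), had 5989 normalized counts per kb over the 4 libraries, at percentile 98.9 of the protein-coding genes in the table. Its normalized counts were 15720 and 15994 in lv_Mettl3 and 16251 and 15858 in lv_nc, and the groups overlapped (log2 fold change -0.02, SE 0.09, limma adjusted p = 0.95).

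Among genes with Atp1b symbols, Atp1b3 took 29.0% and 29.5% of the level per kb in lv_Mettl3 and 29.0% and 29.8% in lv_nc. Atp1b1 took nearly all of the rest. Atp1b3 had normalized counts of 4389 and 4560 in lv_Mettl3 and 4530 and 4616 in lv_nc, which overlap. A short unnamed transcript on chromosome 8, described as the same subunit, had 97.5 and 115 in lv_Mettl3 and 71.3 and 72.0 in lv_nc, so a small part of the Atp1b3 reads could be split off. Atp1b2, the glial beta subunit, averaged 16.2 ± 2.51 in lv_Mettl3 and 28.6 ± 17.0 in lv_nc, with overlap (log2 fold change -0.66, limma adjusted p = 0.655). Atp1b4 was at 0 and 2.07 in lv_Mettl3 and 2.93 and 6.46 in lv_nc, without overlap (limma adjusted p = 0.515). The sperm alpha isoform gene Atp1a4 stayed at or below 2.93 in every library. Per kb, the level of Atp1b1 was 2.44 and 2.39 times that of Atp1b3 in lv_Mettl3 and 2.45 and 2.34 times in lv_nc.

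**Figure D2:**
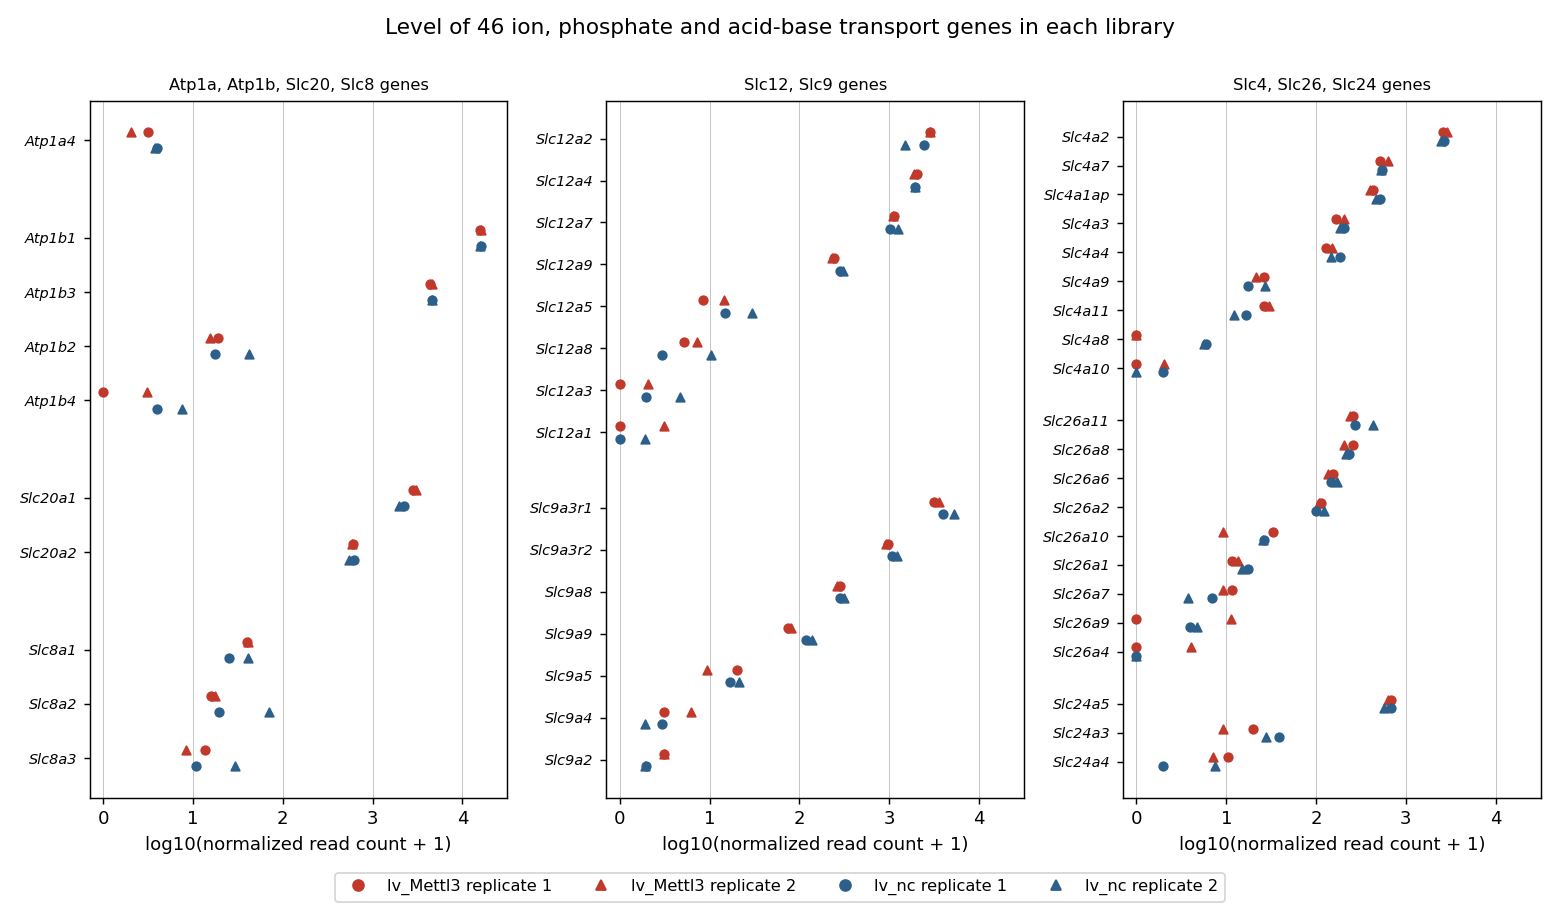
Level of 46 of the genes in each library, as log10(normalized read count + 1) on the x axis, with genes grouped by family and ordered by mean. Circles are replicate 1 and triangles replicate 2, lv_Mettl3 (red) is drawn above lv_nc (blue), and the levels run from about 0 for Slc12a1 and Slc26a4 to 15720 or more for Atp1b1.

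Among phosphate importers, Slc20a1 was higher in lv_Mettl3. Slc20a1 (ENSRNOG00000018567, chromosome 3, 121725859 to 121739173) encodes the sodium-dependent phosphate importer that most cells use. It had normalized counts of 2814 and 3044 in lv_Mettl3 and 2218 and 1968 in lv_nc. Both lv_Mettl3 libraries were above both lv_nc libraries, and each gap between the groups was wider than the gap within either. The lv_Mettl3 mean was 2929 ± 163 and the lv_nc mean 2093 ± 176 (log2 fold change 0.49, SE 0.10, 95% interval 0.22 to 0.75, limma unadjusted p = 0.00545, adjusted p = 0.385). Leaving out 1 library gave log2 fold changes between 0.400 and 0.572. Its partner Slc20a2, a second importer of the same kind, had 600 and 595 in lv_Mettl3 and 620 and 544 in lv_nc, with no separation (log2 fold change 0.04, 95% interval -0.27 to 0.35). Per kb, the level of Slc20a1 was 5.65 and 6.16 times that of Slc20a2 in lv_Mettl3 and 4.31 and 4.36 times in lv_nc.

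Among cation-chloride cotransporters, the importer Slc12a2 was higher in lv_Mettl3, and lv_nc replicate 2 set much of the difference. Slc12a2, the widely expressed sodium-potassium-chloride importer (ENSRNOG00000015971, chromosome 18, 52917124 to 52985261), had normalized counts of 2843 and 2856 in lv_Mettl3 and 2412 and 1500 in lv_nc. The lv_Mettl3 libraries were nearly equal, and lv_nc replicate 2 was far below the other 3. The log2 fold change was 0.58 (SE 0.23, limma unadjusted p = 0.0522, adjusted p = 0.484). It was 0.93 without lv_nc replicate 1 and 0.24 without lv_nc replicate 2.

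Slc12a4, a potassium-chloride exporter with the highest level per kb of the family, had 2049 and 1876 in lv_Mettl3 and 1915 and 1923 in lv_nc, with overlapping groups (log2 fold change 0.03, 95% interval -0.21 to 0.27). Per kb, the level of Slc12a2 was 0.807 and 0.886 times that of Slc12a4 in lv_Mettl3 and 0.733 and 0.454 times in lv_nc. Slc12a7, another exporter, averaged 1110 ± 27.5 in lv_Mettl3 and 1130 ± 167 in lv_nc. Slc12a9, a family member of less settled transport function, averaged 237 ± 10.2 in lv_Mettl3 and 294 ± 15.7 in lv_nc, without overlap (log2 fold change -0.31, limma adjusted p = 0.507). The neuronal exporter Slc12a5 averaged 10.4 ± 4.25 in lv_Mettl3 and 21.1 ± 10.6 in lv_nc. The segment-specific importers were close to absent: Slc12a1 of the thick ascending limb was at 0 and 2.07 in lv_Mettl3 and 0 and 0.923 in lv_nc, and Slc12a3 of the distal convoluted tubule at 0 and 1.03 in lv_Mettl3 and 0.977 and 3.69 in lv_nc. Slc12a8 was between 1.95 and 9.23.

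**Figure D3:**
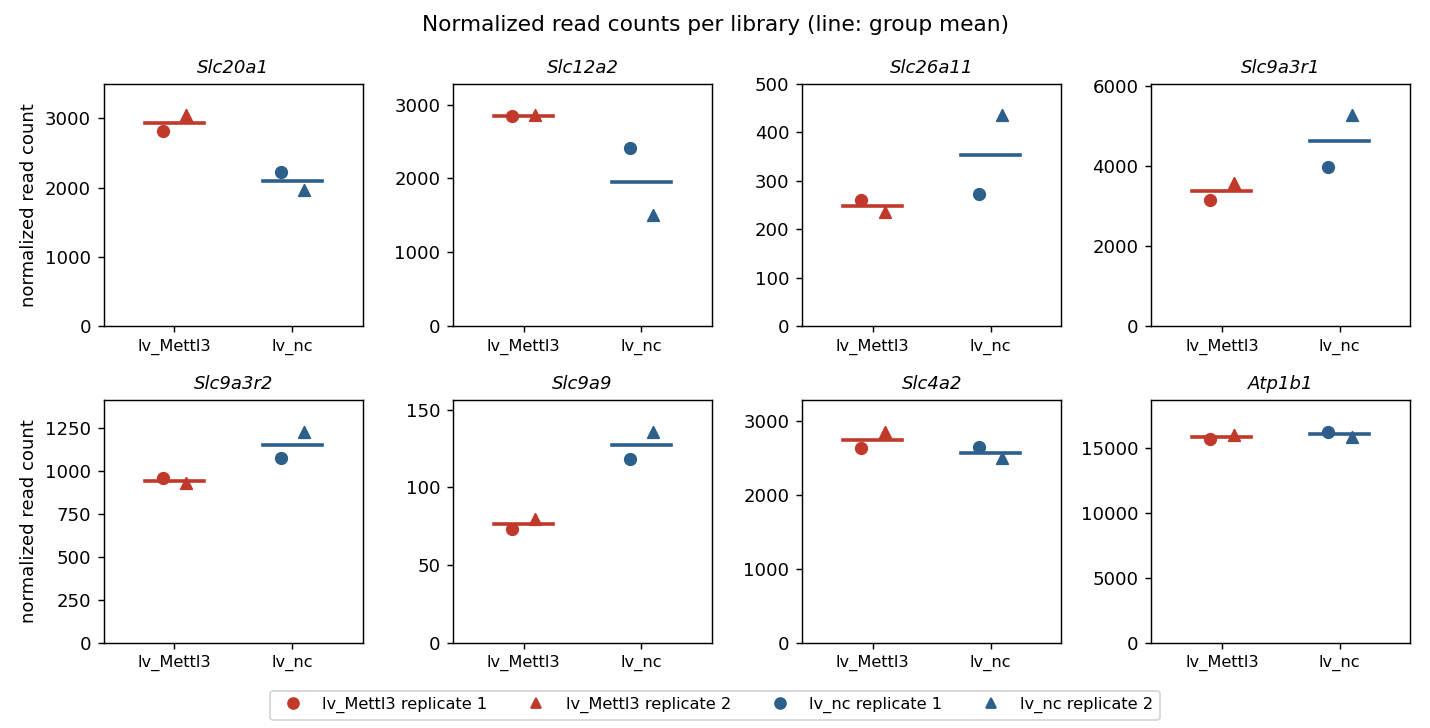
Normalized read counts (y axis, from 0) of 8 ion transport genes in lv_Mettl3 (left, red) and lv_nc (right, blue), with 1 point per library and a line at the group mean. In Slc12a2 and Slc26a11 lv_nc replicate 2 (triangle, 1500 and 435) is far from the other 3 libraries, in Slc20a1 and Slc9a9 the 2 groups are apart with close replicates, and in Slc4a2 and Atp1b1 they overlap.

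Of the 9 genes with Slc9 symbols, 7 had a log2 fold change below 0, beside 49.3% of all genes tested. The 9 include 2 genes of scaffolds rather than sodium/proton exchangers, Slc9a3r1 and Slc9a3r2, and both were among the 7. Of the 9, 3 were lower with a limma unadjusted p under 0.05 (background 4.93%), and 2 of those 3 were these scaffold genes. Slc9a3r1 (also called Nherf1, ENSRNOG00000003232, chromosome 10, 103713045 to 103730145) encodes a PDZ scaffold that tethers carriers such as the apical sodium/proton exchanger and the sodium-phosphate cotransporter to the cytoskeleton through ezrin. It had 3158 and 3570 in lv_Mettl3 and 3976 and 5266 in lv_nc. The groups did not overlap, but lv_nc replicate 2 was farther from its own replicate than lv_nc replicate 1 was from lv_Mettl3 replicate 2. The log2 fold change was -0.45 (SE 0.16, limma unadjusted p = 0.0384, adjusted p = 0.469), -0.65 without lv_nc replicate 1 and -0.24 without lv_nc replicate 2. The related scaffold gene Slc9a3r2 (Nherf2) had 957 and 931 in lv_Mettl3 and 1078 and 1230 in lv_nc (log2 fold change -0.29, SE 0.11, limma unadjusted p = 0.0492, adjusted p = 0.476), also without overlap. Ezr, the gene of ezrin, averaged 11651 in lv_Mettl3 and 11778 in lv_nc.

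Slc9a9, an exchanger of endosomes (ENSRNOG00000008554, chromosome 8), had 73.2 and 79.6 in lv_Mettl3 and 118 and 136 in lv_nc. The lv_nc libraries were both well above the lv_Mettl3 libraries, and the difference kept its size without any 1 library, between -0.823 and -0.625 on the log2 scale (fitted value -0.72, SE 0.22, 95% interval -1.29 to -0.15, limma unadjusted p = 0.0222, adjusted p = 0.452). Slc9a8, an exchanger of the Golgi, averaged 271 ± 10.8 in lv_Mettl3 and 297 ± 22.3 in lv_nc, without overlap (log2 fold change -0.13, limma adjusted p = 0.753). Slc9a5 averaged 13.7 ± 7.65 in lv_Mettl3 and 18.0 ± 3.31 in lv_nc, and the epithelial exchangers Slc9a2 and Slc9a4 were at or below 5.17 in every library.

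Bicarbonate carriers were led by Slc4a2, the chloride/bicarbonate exchanger of most epithelial cells (ENSRNOG00000014347, chromosome 4, 7264683 to 7281223). It had 2626 and 2850 in lv_Mettl3 and 2645 and 2491 in lv_nc, which overlap (log2 fold change 0.09, 95% interval -0.15 to 0.33, limma adjusted p = 0.721). Leaving out 1 library gave 0.033 to 0.151. Of the level per kb summed over all Slc4 symbols, Slc4a2 held 61.5% and 61.9% in lv_Mettl3 and 58.3% and 58.8% in lv_nc. That sum includes Slc4a1ap, which is not a carrier and held 19.2% and 16.5% in lv_Mettl3 and 21.5% and 21.0% in lv_nc. The share of Slc4a2 among the carriers alone is therefore higher. Slc4a7, an electroneutral sodium-bicarbonate cotransporter, averaged 576 ± 87.3 in lv_Mettl3 and 534 ± 12 in lv_nc. Slc4a4, the electrogenic cotransporter that takes bicarbonate out across the basolateral membrane of the proximal tubule, averaged 138 ± 15.3 in lv_Mettl3 and 164 ± 28.0 in lv_nc, and Slc4a3, another anion exchanger, 183 ± 27.0 in lv_Mettl3 and 192 ± 13.7 in lv_nc. Neither separated the groups. Slc4a1ap, which encodes kanadaptin, averaged 416 ± 22.3 in lv_Mettl3 and 493 ± 32.5 in lv_nc, without overlap (log2 fold change -0.24, limma adjusted p = 0.537). Slc4a11 averaged 27.2 ± 2.47 in lv_Mettl3 and 13.4 ± 3.22 in lv_nc, without overlap (log2 fold change 0.99, limma adjusted p = 0.486), and Slc4a9 23.1 ± 3.38 in lv_Mettl3 and 21.2 ± 6.53 in lv_nc.

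Slc4a8, a sodium-driven chloride/bicarbonate exchanger (ENSRNOG00000028879, chromosome 7), had 0 reads in both lv_Mettl3 libraries and normalized counts of 4.88 and 4.62 in lv_nc, which were 5 reads each. The lv_nc mean was 1.51 times a floor set at 3 reads per library, which with so few reads is no bound on the difference. The fitted log2 fold change of a gene at this depth depends on the pseudocount. Slc4a8 passed the filter on low values through lv_nc alone, so its limma p-values (unadjusted 0.00561, adjusted 0.385) follow partly from the filter. DESeq2 gave a log2 fold change of -4.62 (SE 2.74, DESeq2 unadjusted p = 0.0918) and no adjusted p. Slc4a10 was at or below 1.03 in every library and was not tested.

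Among the multifunctional anion exchangers of the Slc26 family, Slc26a11 had the highest level per kb, at percentile 54.2 of the protein-coding genes. It had 260 and 236 in lv_Mettl3 and 272 and 435 in lv_nc. Here again lv_nc replicate 2 was alone at the top (log2 fold change -0.47, SE 0.26, limma adjusted p = 0.542), and the value was -0.81 without lv_nc replicate 1 and -0.13 without lv_nc replicate 2. The sulfate carrier Slc26a2 averaged 109 ± 3.45 in lv_Mettl3 and 111 ± 16.4 in lv_nc, and Slc26a6, an oxalate and chloride exchanger of the proximal tubule brush border, 144 ± 13.7 in lv_Mettl3 and 159 ± 15.8 in lv_nc. Slc26a8, known from sperm, averaged 232 ± 38.2 in lv_Mettl3 and 224 ± 13.0 in lv_nc. Pendrin, the intercalated cell exchanger encoded by Slc26a4, had 0 and 3.10 in lv_Mettl3 and 0 in both lv_nc libraries, and was not tested. Slc26a10 had 31.8 and 8.27 in lv_Mettl3 and 25.4 and 24.9 in lv_nc, and Slc26a1, Slc26a7 and Slc26a9 were at or below 16.6 in every library. Slc26a1 lies wholly inside the deposited span of Idua on the other strand, whose counts were between 421 and 680, so its few reads are uncertain. Slc26a10 shares 349 bases with B4galnt1 on the other strand, whose counts were between 50.9 and 88.6, so its level is uncertain too. The deposited spans of 8 of the ion transport genes overlapped that of another gene.

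Calcium exchangers were scarce apart from Slc24a5. Slc8a1, the sodium/calcium exchanger of heart and distal tubule and the highest Slc8 gene per kb, had 39.2 and 40.3 in lv_Mettl3 and 24.4 and 39.7 in lv_nc, with lv_nc replicate 1 low (log2 fold change 0.34, SE 0.37, limma adjusted p = 0.74). The value was 0.0024 without lv_nc replicate 1 and 0.68 without lv_nc replicate 2. The nerve and muscle exchangers Slc8a2 and Slc8a3 averaged 15.7 ± 1.20 and 9.98 ± 3.88 in lv_Mettl3 and 43.9 ± 35.8 and 19.2 ± 13.3 in lv_nc, where Slc8a2 was at 18.6 and 69.2. Slc24a3 averaged 13.7 ± 7.65 in lv_Mettl3 and 32.4 ± 8.01 in lv_nc, without overlap (log2 fold change -1.27, limma adjusted p = 0.488), and Slc24a4 7.87 ± 2.36 in lv_Mettl3 and 3.72 ± 3.88 in lv_nc. Slc24a5, a potassium-dependent sodium/calcium exchanger known from pigment cells (ENSRNOG00000005158, chromosome 3, 117335212 to 117354480), had 689 and 637 in lv_Mettl3 and 684 and 566 in lv_nc, which overlap. Its deposited span shares 99 bases with Myef2 on the other strand, which had 1885 and 1821 in lv_Mettl3 and 1955 and 1855 in lv_nc, so the level of Slc24a5 is uncertain.

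Genes that work with these carriers showed few differences. Of 30 acid-base enzyme and proton pump genes found, limma tested 28 and called 0 (background 0.0183%), and DESeq2 called 2 of the 30 (background 1.79%). Of the 28, 4 had a limma unadjusted p under 0.05 (2 higher and 2 lower, background 10.5%). Car3, a cytosolic carbonic anhydrase, had 480 and 485 in lv_Mettl3 and 249 and 246 in lv_nc, and rose in DESeq2 (log2 fold change 0.96, SE 0.23, DESeq2 adjusted p = 0.00263; limma adjusted p = 0.272). Car9, a carbonic anhydrase of the cell surface, had 7751 and 7929 in lv_Mettl3 and 10290 and 11151 in lv_nc, and fell in DESeq2 (log2 fold change -0.45, SE 0.14, DESeq2 adjusted p = 0.0407; limma adjusted p = 0.378). The proton pump subunit gene Atp6v0c, the highest of that list per kb, averaged 6270 ± 421 in lv_Mettl3 and 6729 ± 402 in lv_nc.

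Of 13 genes of the WNK kinase pathway that switches Slc12 carriers, and of the ubiquitin ligases and kinases beside it, limma and DESeq2 each called 0 (backgrounds 0.0183% and 1.79%), and 1 had a limma unadjusted p under 0.05 (background 10.5%). That gene was Wnk3, named after its values were seen, with 1418 and 995 in lv_Mettl3 and 789 and 277 in lv_nc (log2 fold change 1.34, SE 0.51, limma adjusted p = 0.473). Nedd4, the ubiquitin ligase gene with the highest level of the list per kb, averaged 29531 ± 676 in lv_Mettl3 and 30846 ± 1627 in lv_nc. Of sodium pump partners, limma called 0 of 8 tested and DESeq2 called 0 of 10, in a list that includes the related pump genes Atp4a and Atp12a. They called 0 of 20 exchanger-binding proteins, a list that includes Cftr, Ostm1 and chloride transporter genes of the Clcn family. They called 0 of 15 phosphate and calcium handling genes and 0 of 11 relatives that the symbol rule leaves out. At a limma unadjusted p under 0.05 these lists had, in that order, 0, 0, 3 and 1 genes (background 10.5%). Their highest genes per kb were Fxyd5, a small regulator of the pump (3090 ± 231 in lv_Mettl3 and 3082 ± 67.2 in lv_nc), Rack1 (16125 ± 245 in lv_Mettl3 and 16920 ± 1020 in lv_nc), Atp2a2, the calcium pump of the endoplasmic reticulum (10876 ± 125 in lv_Mettl3 and 8799 ± 940 in lv_nc), and the mitochondrial phosphate carrier Slc25a3 (9293 ± 41.8 in lv_Mettl3 and 9091 ± 684 in lv_nc).

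The DNA before the start of each gene was read from RefSeq (build GRCr8), which gave a single 250-base window for 35 of the 52, with Slc9a3r1 and Slc9a3r2 matched through their synonyms. The 15 matched genes with a mean of at least 100 had a median of 23 CpG dinucleotides in the window, the 6 with a mean of 20 to under 100 had 4.5, and the 14 with a mean under 20 had 7, beside a median of 5 over 33469 rat windows. Across the 35 genes, which share libraries and differ in base composition, Spearman's rho between CpG count and level per kb was 0.574, given as a description. The GC box GGGCGG, searched on both strands with overlapping matches counted, was in 11 of the 15 and 2 of the 14, beside 30.5% of all windows. The TATA box TATAAA was in 0 of the 15 and 3 of the 14, beside 12.9% of all windows, and the CCAAT box CCAAT in 6 of the 15 and 10 of the 14, beside 34%. The AP-1 motif TGANTCA was in 0 of the 15 and 2 of the 14 (6.34% of all windows) and the E-box CACGTG in 3 of the 15 and 2 of the 14 (5.59%). These matches describe letters in the window and no binding was measured.

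**Figure D4:**
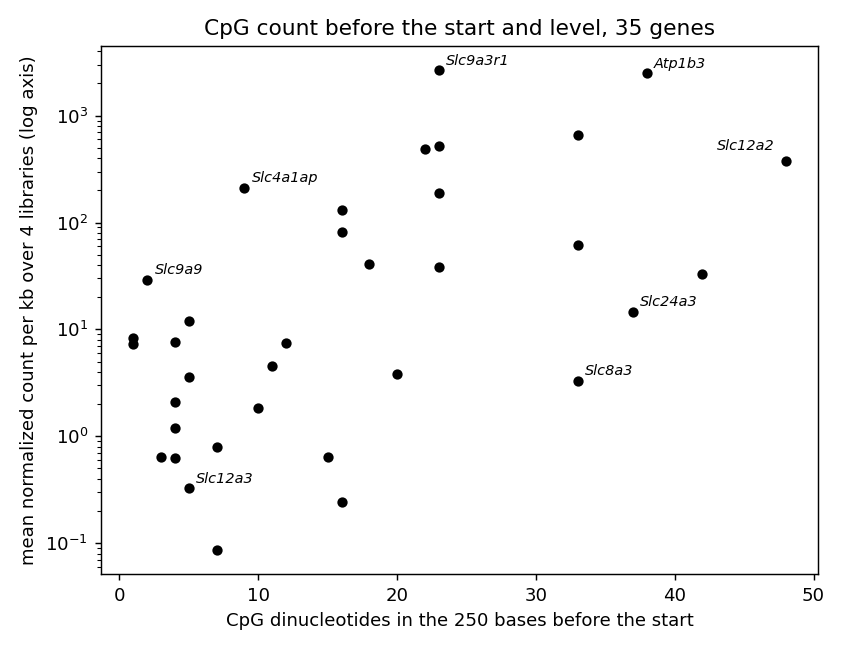
Number of CpG dinucleotides in the 250 bases before the start (x axis) against mean normalized count per kb over the 4 libraries (y axis, log scale) for the 35 matched genes, 1 point a gene. Atp1b3, Slc9a3r1 and Slc12a2 combine a high level with 38, 23 and 48 CpG, Slc8a3 and Slc24a3 are low with 33 and 37, and Slc4a1ap has the highest level among genes with fewer than 16, at 9.

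Of these windows, 4 are shown, each 5′ to 3′ on the gene's strand with motif matches in capitals. Slc12a2 and Slc9a3r1 are abundant genes whose libraries differed, Slc9a9 is 1 of several genes with few CpG whose groups did not overlap, and Slc12a3 is a near-silent relative of Slc12a2. Slc12a2 holds 48 CpG and 3 GC boxes, Slc9a3r1 23 CpG with 3 GC boxes and 3 CCAAT boxes, Slc9a9 2 CpG and none of the motifs searched, and Slc12a3 5 CpG and 1 TATA box.
Slc12a2, chr18:53546083-53546332, plus strand: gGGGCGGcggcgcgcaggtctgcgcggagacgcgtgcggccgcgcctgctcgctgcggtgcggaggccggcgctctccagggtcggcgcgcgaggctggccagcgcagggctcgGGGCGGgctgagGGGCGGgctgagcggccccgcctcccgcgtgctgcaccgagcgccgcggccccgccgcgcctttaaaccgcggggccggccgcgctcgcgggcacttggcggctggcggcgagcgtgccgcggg
Slc9a3r1, chr10:100901915-100902164, plus strand: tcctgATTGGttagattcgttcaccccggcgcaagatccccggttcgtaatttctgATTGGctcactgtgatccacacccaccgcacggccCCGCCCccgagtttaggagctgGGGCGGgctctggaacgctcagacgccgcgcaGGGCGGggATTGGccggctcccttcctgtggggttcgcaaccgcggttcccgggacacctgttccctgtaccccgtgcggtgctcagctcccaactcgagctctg
Slc9a9, chr8:104112285-104112534, plus strand: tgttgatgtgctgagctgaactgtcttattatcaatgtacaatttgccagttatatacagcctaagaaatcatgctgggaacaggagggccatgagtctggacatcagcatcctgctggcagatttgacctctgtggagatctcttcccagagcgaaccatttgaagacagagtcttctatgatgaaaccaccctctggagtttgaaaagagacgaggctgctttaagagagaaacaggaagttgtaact
Slc12a3, chr19:10675051-10675300, minus strand: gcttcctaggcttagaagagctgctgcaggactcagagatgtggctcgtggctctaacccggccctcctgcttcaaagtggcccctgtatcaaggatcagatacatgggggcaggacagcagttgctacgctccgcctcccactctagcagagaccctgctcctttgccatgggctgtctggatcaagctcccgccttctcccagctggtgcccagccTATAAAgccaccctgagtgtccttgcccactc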

How the data were processed

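RNA sequencing of 2 lv_Mettl3 and 2 lv_nc libraries was analysed. Reads were processed with CASAVA 1.4 and HISAT2, per the submitters' processing notes. For counter, strand setting, genome build and annotation, no statement was found in the labels or files. The deposited values are a signal, namely reads per gene over a size factor of each library: within 0.001 reads, 100% of values were whole multiples of the value of 1 read, so whole reads were recovered. The log2 fold changes, p-values and other values such as gene lengths in the deposited table are the authors' own.

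The main test was limma 3.58.1 (trend) on log2(value + 1), genes with at least 1 in at least 2 libraries, Benjamini-Hochberg adjustment at 0.05. It understates changes of low genes. Alternatives were edgeR 4.0.16 and DESeq2 1.42.0 on recovered reads, other pseudocounts, filters and scalings, a replicate block and leaving out each library (R 4.3.3, Python 3.11.15). DESeq2 without single libraries was added after seeing the data. The genes and lists were chosen with earlier results of these data known. Full values are given for genes called, those with an unadjusted limma p under 0.05 and the highest per kb of each family; means for genes with a mean of at least 20; and, from the lists, called genes and the highest per kb. Per-library values of Slc12a2, Atp1b3, Slc20a2 and low genes were added after values were seen. The short list of 167 genes was used only to look up membership. Counts cover all 52 genes; some of these genes are not reported here singly.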

Additional observations from a re-analysis of the deposited data

How the results depend on the processing

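The count of ion transport genes called was 0 in every alternative run except 2, both without lv_nc replicate 1: 5 by limma and 4 by DESeq2, so leaving out 1 library gave 0 to 5 by limma and 0 to 4 by DESeq2. The count at an unadjusted p under 0.05 was 5, 3 to 11 without 1 library by limma, 0 to 7 by DESeq2 and 8 with the replicate block, which changed no call; same-numbered libraries deviated together across 10051 genes (r = 0.33), but no label ties them. Calls over all genes were 3, and 0 with a pseudocount of 0.1, 5 with at least 10 in all 4 libraries, 5 with protein-coding genes, 24 with robust empirical Bayes, 5 with edgeR, 318 with DESeq2, 28 to 1431 without 1 library by limma and 56, 61, 217 and 1547 by DESeq2. Of 177 log2 fold changes of the 12 genes followed, 170 kept direction and side of the threshold. The 4 that passed it did so without lv_nc replicate 1. Reversed values were near 0: Slc24a5 at -0.0461 without lv_nc replicate 2, and Slc12a4 at -0.00893 with library total scaling and -0.0329 without lv_Mettl3 replicate 1. Leaving out 1 library gave -0.0461 to 0.227 for Slc24a5 and -0.0329 to 0.0949 for Slc12a4; Slc4a8 had no value without either lv_nc library or with the filter at 10. The median log2 fold change ran from -0.17 to -0.05. The causes were not tested. With 2 libraries a group, depth and spread left 95% intervals of 0.21 to 0.73 either way for the 26 genes with a mean of at least 100.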
